A study of Mus musculus with 6 samples.

Results

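Hypoxia-inducible factors (HIFs) and the enzymes that couple them to oxygen were examined in regulatory T cells (Tregs) with and without Zfp335, a zinc finger transcription factor. The set held 10 of the 13709 genes in the count table: the alpha subunit genes Epas1 and Hif1a, the beta subunit gene Arnt, the prolyl hydroxylase genes Egln1, Egln2 and Egln3, the asparaginyl hydroxylase gene Hif1an, the ubiquitin ligase gene Vhl, and the target genes Bnip3 and Bnip3l. These genes were chosen by name, as the core of one pathway, from a series whose KO against WT values were already known. Their differences between genotypes are therefore given as a description, with no test.

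RNA-Seq counts were available for 3 WT and 3 KO samples of CD4+YFP+CD25+ Tregs from C57BL/6 mice that were 2 weeks old per the study's methods. WT mice were Foxp3Cre and KO mice were Foxp3Cre Zfp335fl/fl, so Cre recombinase and YFP were made from the Foxp3 locus in both genotypes and the floxed Zfp335 alleles were carried by KO mice. The paper reports that KO mice developed autoimmune inflammation early in life. It ascribes the changed Treg and helper T cell signatures of KO Tregs to that inflammation and not to a direct effect of the deletion. The part of inflammation in the values below was not tested. The labels named both lymph nodes and spleen as the source of the cells. They left unsaid if 1 mouse or a pool gave each sample, so p-values measure only the spread between these samples, which may be technical. Each library held 32032631 to 40728419 counts. Values are given as CPM, counts of a gene per 1000000 counts of the library after TMM scaling (trimmed mean of M values), with the mean ± SD over 3 samples. In the labelled knockouts Zfp335 was at 38.3 ± 1.66 CPM, against 99.4 ± 4.50 in WT (n = 3 each), which left 38.6% of the WT level. Exons of Zfp335 overlap 1107 bases of Pcif1 on the opposite strand, and use of strand in the counting was not given in the sources used here.

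The sorted cells held the defining Treg transcripts Foxp3 (642 to 1190 CPM in WT, 460 to 472 in KO), Il2ra and Cd4 in every sample. WT replicate 3 stood apart from the other WT samples: the median ratio of observed to sampling variance over genes was 24.4 and 24.9 for its pairs, 9.95 for WT replicates 1 and 2, and 5.25 to 6.04 for KO pairs. In that library the summed level of 8 proliferation markers was 517 CPM, whereas it was 1014 and 1017 in the other WT samples and 2900 to 3019 in KO samples. Below, values without WT replicate 3 are added for some genes, and all other values include it.

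HIFs are transcription factors made of an oxygen-labile alpha subunit, HIF-1alpha (Hif1a) or HIF-2alpha (Epas1), and the stable beta subunit ARNT. When oxygen is present, the EGLN enzymes hydroxylate prolines of the alpha subunit, VHL binds the hydroxylated protein and directs its ubiquitination, and HIF1AN hydroxylates an asparagine that blocks coactivator binding. When oxygen is short, alpha subunits persist, pair with ARNT and raise transcription of genes for glycolysis, blood vessel growth and mitophagy. The mitophagy gene Bnip3 and the hydroxylase genes Egln1 and Egln3 are among the known targets. In T cells HIF-1alpha is known to raise glycolysis and to be controlled by antigen receptor and mTOR signals as well as by oxygen, and most of this control acts on the protein, which RNA-Seq does not measure.

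A common core of HIF binding sites is the sequence ACGTG, so the promoters of members were read for it, to show where the genes encoding the sensors hold the letters their own pathway binds. Promoters were RefSeq sequences of GRCm38.p6, another name of the mm10 build, 250 bases before to 50 bases after a start site, and 8 of the 10 genes matched an entry. The letters ACGTG occurred on either strand in 5 of these 8, Hif1a, Egln1, Egln2 (at 1 of its 2 starts), Egln3 and Bnip3, and in 21.8% of all 27025 genes with a promoter. Those of Arnt, Hif1an and Vhl did not hold these letters in this window. Epas1 and Bnip3l had no entry. The 4 promoters that follow belong to the alpha subunit gene with an entry and to the 3 genes known as targets of their own pathway, and are printed 5' to 3' on the strand of the gene, with ACGTG on either strand in capitals. They lie at chr12:73907617-73907916 (plus strand) for Hif1a, chr8:124949205-124949504 (minus strand) for Egln1, chr12:54203825-54204124 (minus strand) for Egln3 and chr7:138909457-138909756 (minus strand) for Bnip3.
Hif1a: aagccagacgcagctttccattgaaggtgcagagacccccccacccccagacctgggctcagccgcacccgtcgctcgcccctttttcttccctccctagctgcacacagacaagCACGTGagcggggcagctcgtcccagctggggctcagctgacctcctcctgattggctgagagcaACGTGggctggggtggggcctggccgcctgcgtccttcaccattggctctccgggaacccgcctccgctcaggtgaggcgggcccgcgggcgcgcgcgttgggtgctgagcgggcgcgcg
Egln1: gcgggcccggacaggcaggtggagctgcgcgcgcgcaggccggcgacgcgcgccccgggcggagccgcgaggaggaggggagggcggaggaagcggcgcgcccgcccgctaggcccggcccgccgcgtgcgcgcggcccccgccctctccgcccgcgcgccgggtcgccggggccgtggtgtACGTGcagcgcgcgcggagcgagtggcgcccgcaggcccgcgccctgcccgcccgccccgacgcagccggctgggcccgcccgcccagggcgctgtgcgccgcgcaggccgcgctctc
Egln3: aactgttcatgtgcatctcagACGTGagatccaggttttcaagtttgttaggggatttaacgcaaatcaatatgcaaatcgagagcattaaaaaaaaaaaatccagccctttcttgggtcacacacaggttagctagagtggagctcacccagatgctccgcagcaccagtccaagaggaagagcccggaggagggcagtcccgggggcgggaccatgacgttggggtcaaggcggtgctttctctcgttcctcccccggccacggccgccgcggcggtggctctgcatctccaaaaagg
Bnip3: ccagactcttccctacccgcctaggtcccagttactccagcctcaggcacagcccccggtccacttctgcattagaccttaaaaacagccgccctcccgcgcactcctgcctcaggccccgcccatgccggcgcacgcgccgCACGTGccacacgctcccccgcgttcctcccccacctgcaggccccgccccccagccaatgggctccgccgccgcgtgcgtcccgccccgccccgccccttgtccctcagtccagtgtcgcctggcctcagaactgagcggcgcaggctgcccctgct
The Hif1a promoter held 3 matches, which began 135, 134 and 70 bases before the start, and the first 2 overlap in the palindrome CACGTG. This start is that of the RefSeq entry. Its window lies inside the gene span annotated by GENCODE M21 (chr12:73901375-73947530, plus strand), which begins upstream. Egln1 held a single match 68 bases before the start, in GC-rich sequence, and Egln3 a single match 229 bases before it. In Bnip3 a CACGTG palindrome gave overlapping matches 108 and 107 bases before the start. A match is a description of the letters and not a bound site. The related word GCGTG, also searched on both strands, occurred in 4 of the 8 (Arnt, Egln1, Egln2 and Bnip3) and in 35.2% of all genes.

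To describe the alpha subunits, the level of each was followed in every sample. Epas1, which encodes HIF-2alpha and is known for high expression in endothelium, was nearly silent in WT Tregs and abundant in KO Tregs. WT replicates 1, 2 and 3 measured 2.31, 1.52 and 1.29 CPM, and KO replicates in the same order measured 203.6, 210.2 and 207.1 CPM. These values rest on 85, 50 and 43 counts in WT and on 7437, 8444 and 7301 counts in KO. All 3 KO samples lay close together and far above all 3 WT samples. The means were 1.71 ± 0.533 and 206.9 ± 3.31 CPM, a 120.1-fold difference, and the log2 fold change was 6.91 (SE 0.19). By log2 fold change Epas1 was number 31 from the highest of 13594 genes tested.

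Epas1 spans chr17:86753700-86833410 on the plus strand. No gene had a near-identical copy of at least 200 bases at 95% identity or more. No exon of another gene overlapped it among the types searched (protein-coding, lincRNA, antisense, processed transcript and sense-overlapping). WT replicate 3 held the lowest Epas1 level, and without it the log2 fold change was 6.73. Since endothelium is rich in Epas1, its markers were read beside it. Of the 6 endothelial markers listed, Kdr, Tek, Tie1 and Emcn were not among the genes of the table, and Cdh5 was at 0.244 to 0.451 CPM in WT and 0.398 to 0.520 in KO. The sixth, Pecam1, which T cells also express, was at 189 to 202 CPM in WT and 133 to 142 in KO. The summed endothelial markers (189 to 203 CPM in WT, 134 to 143 in KO) are almost wholly Pecam1, and the part of endothelial RNA in the Epas1 values was not tested.

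Sums of myeloid and of B cell markers did not overlap between genotypes, whereas those of CD8 and NK cell, erythroid and stromal markers did. Across all genes tested, 11.9% were called higher in KO and 12.5% lower. Summed myeloid markers were at 16.7 to 28.0 CPM in WT and 51.0 to 60.4 in KO, and 6 of 7 were called higher. Of these, S100a8 and S100a9 were at 0 in every WT sample and at 1.30 to 2.82 CPM in KO, and Csf1r reached 7.29 CPM in KO. Exons of Csf1r overlap 873 bases of Hmgxb3 on the opposite strand, and a gene of the table holds a near-identical copy, so its counts are uncertain. The sum of B cell markers was 16.0 to 18.1 CPM in WT and 10.8 to 11.0 in KO, and that of CD8 and NK cell markers was 11.1 to 15.8 CPM in WT and 15.4 to 17.6 in KO. Of these 4, Cd8a (1.005 to 2.31 CPM in WT, 2.86 to 4.17 in KO) and Klrb1c (1.17 to 2.46 and 2.52 to 4.36 CPM) were called higher, whereas Cd8b1, the most abundant, was at 8.20 to 11.0 and 7.91 to 9.58 CPM. Erythroid markers summed to 15.5 to 63.2 CPM in WT and 27.3 to 30.0 in KO, and the single stromal marker in the table, Col1a1, was at 1.80 to 2.99 and 2.05 to 2.81 CPM. Of 7 Treg and T cell markers Foxp3 and Ikzf2 were called lower, with sums of 4425 to 5461 CPM in WT and 3613 to 3725 in KO. The part that these markers, or the 8 of 8 proliferation markers called higher in KO, play in the Epas1 and Hif1a values was not tested. In bulk samples, fewer cells of a type and less RNA per cell cannot be told apart.

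Hif1a, which encodes HIF-1alpha, was already abundant in WT Tregs and was higher in each KO sample. WT samples, again in the order of their replicate numbers, measured 191, 228 and 282 CPM, whereas KO samples measured 574, 618 and 590.4 CPM. The lowest KO value was above the highest WT value by 292 CPM, and the highest WT value was that of WT replicate 3. The means were 234 ± 45.9 and 594 ± 22.2 CPM, with a log2 fold change of 1.35 (SE 0.13) or 2.54-fold, and of 1.5 without WT replicate 3. Hif1a spans chr12:73901375-73947530 on the plus strand. Its exons overlap 330 bases of the antisense gene Gm15283 and 148 bases of the same-strand gene Gm49321, so counts in those stretches are uncertain.

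Arnt (chr3:95434388-95497240, plus strand), the partner of both alpha subunits, was slightly lower in KO Tregs. Its level was 95.8, 87.3 and 81.3 CPM in WT and 71.4, 75.2 and 71.0 CPM in KO. The groups did not overlap, and the log2 fold change was -0.28 (SE 0.08), short of 1.5-fold. Arnt was thus lower in KO where Epas1 and Hif1a were higher.

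**Figure D1:**
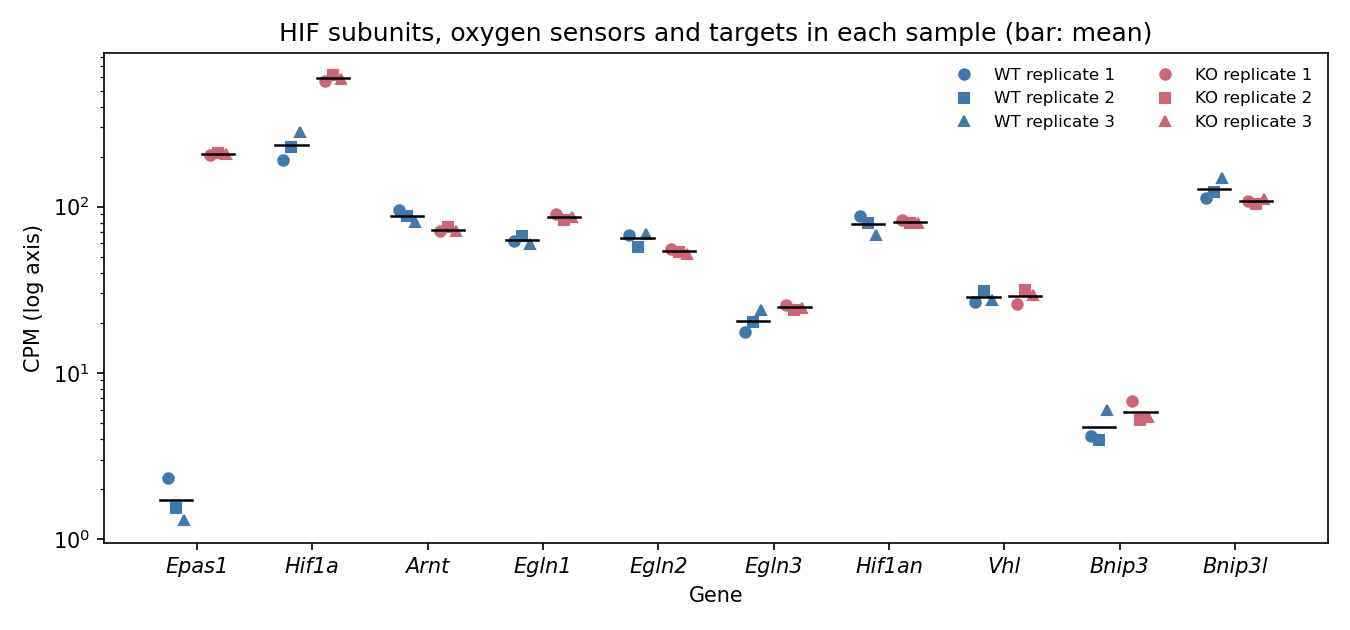
Level of each of the 10 genes in each sample, in CPM on a log axis, with WT in blue, KO in red, marker shapes for replicates 1 to 3 and black bars for the mean of 3 samples. Epas1 sits at 1.29 to 2.31 CPM in WT and 203.6 to 210.2 CPM in KO, whereas Vhl, Hif1an and Bnip3 overlap between genotypes.

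To compare subunits with each other, CPM was divided by the length in kb of the longest protein-coding transcript in GENCODE M21. Per kb, Hif1a was the highest of the 10 genes in both genotypes, with means of 49.5 CPM per kb in WT and 125.8 in KO. Epas1 was the lowest in WT at 0.310 CPM per kb and second in KO at 37.5 CPM per kb. Although its fold difference was far smaller, Hif1a gained more transcript than Epas1, by 76.3 against 37.2 CPM per kb.

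The makeup of the alpha subunit transcripts differed in turn. Epas1 gave 1.03%, 0.567% and 0.391% of the summed level of Epas1 and Hif1a in WT replicates 1 to 3, and 23.3%, 22.5% and 23.1% in KO replicates 1 to 3. For each Epas1 transcript there were 96.5, 175 and 255 Hif1a transcripts per length in WT, and 3.29, 3.43 and 3.33 in KO. The KO samples agreed closely with one another on this ratio, whereas it varied widely among WT samples, in which Epas1 rested on few counts. Hif1a was the main alpha subunit transcript in all 6 samples. The third alpha subunit gene, Hif3a, is not in these sums: it was at 1.24 ± 0.0730 CPM per kb in WT, above Epas1, and at 0.687 ± 0.0691 in KO, and with it Epas1 gave 0.644% ± 0.316 of the sum in WT and 22.9% ± 0.376 in KO.

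Arnt was lower while the alpha subunits were higher. The ratio of alpha subunit to Arnt transcripts therefore differed more than the summed level of Epas1 and Hif1a, which was 3.28-fold higher in KO. This ratio was 1.84, 2.41 and 3.19 in WT and 9.61, 9.72 and 9.91 in KO, on the scale of CPM per kb and with Epas1 and Hif1a as the alpha subunits. Its mean was 2.48 ± 0.677 in WT and 9.74 ± 0.151 in KO, or 3.93-fold higher. Arnt2, another beta subunit, is not in this ratio and was higher in KO (means of 5.50 CPM in WT and 16.2 in KO). The size of the ratio to Arnt depends on the length assumed for Arnt: with the union of all annotated exons as length, a choice made after seeing the data, the ratio was 3.69 in WT and 15.2 in KO.

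**Figure D2:**
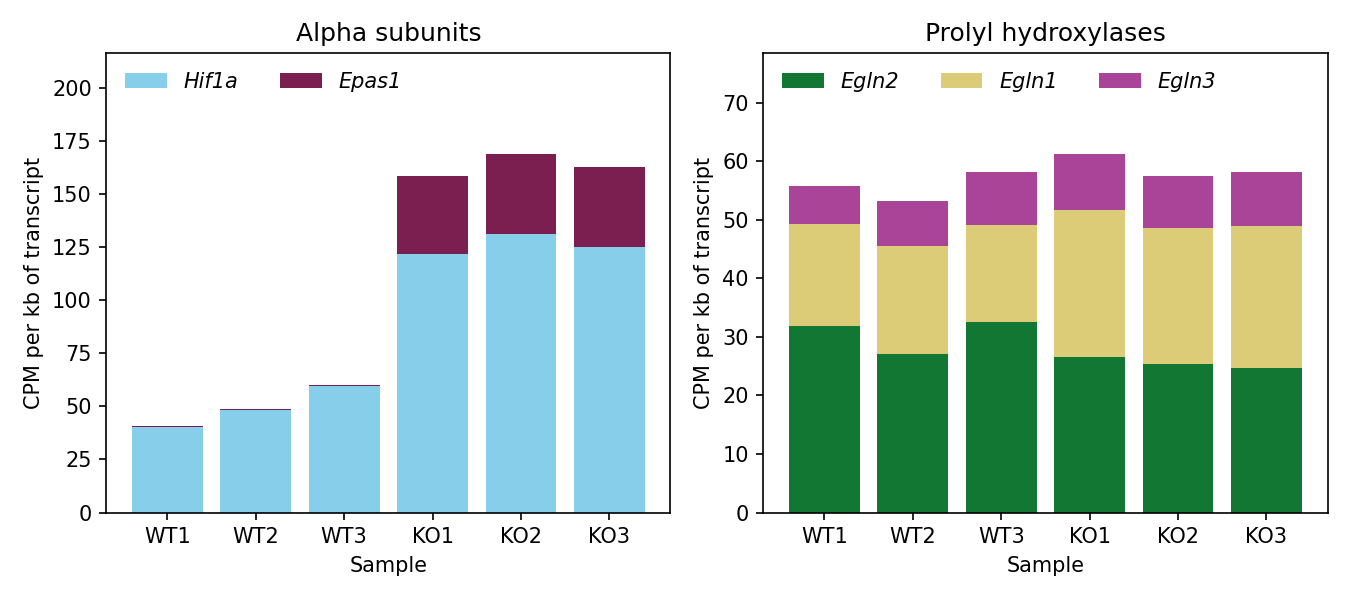
Stacked levels in CPM per kb of transcript in each sample, for the alpha subunits (left) and the prolyl hydroxylases (right). Epas1 and Hif1a sum to 40.8 to 60.0 in WT and 158 to 169 in KO with Epas1 visible in KO, whereas the hydroxylases sum to 53.1 to 58.1 in WT and 57.5 to 61.3 in KO.

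The prolyl hydroxylases, which mark alpha subunits for destruction, were next examined one by one. Egln1 (PHD2; chr8:124908587-124949324, minus strand), the main HIF prolyl hydroxylase in most cells and itself a HIF target, was at 62.2, 66.3 and 59.7 CPM in WT and 90.4, 83.3 and 86.6 CPM in KO. Every KO sample was above every WT sample, and the log2 fold change was 0.47 (SE 0.07). This was the largest difference among the 8 genes outside the call rule and still lay under 1.5-fold.

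Egln2 (PHD1; chr7:27158658-27166802, minus strand), which is not known as a HIF target, was lower in KO. It was at 67.3, 57.1 and 68.6 CPM in WT and 55.9, 53.3 and 52.1 CPM in KO, with a log2 fold change of -0.26 (SE 0.09). The gap between the lowest WT and the highest KO sample was only 1.25 CPM. Egln2 shares 11 bases with Cyp2t4 on the opposite strand.

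Egln3 (PHD3; chr12:54178981-54203860, minus strand), the isoform known to respond most to HIF, was the least abundant of the Egln transcripts. Its values were 17.5, 20.1 and 23.9 CPM in WT and 25.6, 23.9 and 24.7 CPM in KO, for a log2 fold change of 0.27 (SE 0.13). The groups were separated by 0.0679 CPM, because WT replicate 3 reached the level of the lowest KO sample, and without that library the log2 fold change was 0.39.

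Summed per kb, the Egln transcripts were close between genotypes, at 55.7 ± 2.50 CPM per kb in WT and 59.0 ± 2.04 in KO, with overlapping samples. Their makeup differed. Egln1 gave 31.4% ± 3.12 of the sum in WT and 40.9% ± 0.575 in KO, and Egln2 gave 54.8% ± 3.28 and 43.3% ± 0.731. Egln3 held 13.8% ± 1.85 and 15.8% ± 0.166. Egln2 and Egln1 had overlapping ranges of level per kb in KO but not in WT, and with exon union lengths Egln1 was the larger in KO (45.9% against 36.5%) and Egln2 in WT (47.7% against 36.4%). The ratio of Epas1 and Hif1a to Egln transcripts was 0.893 ± 0.152 in WT and 2.77 ± 0.178 in KO, 3.11-fold higher.

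Hif1an and Vhl were the members closest between genotypes. Hif1an, the asparaginyl hydroxylase (chr19:44562850-44576274, plus strand), was at 88.0, 79.6 and 68.0 CPM in WT and 83.0, 79.8 and 79.8 CPM in KO. All KO values fell inside the WT range, and the log2 fold change was 0.04 (SE 0.10). Vhl, the substrate receptor of the ubiquitin ligase (chr6:113623959-113631633, plus strand), was at 26.8, 31.2 and 27.2 CPM in WT and 25.8, 31.4 and 29.3 CPM in KO, with a log2 fold change of 0.02 (SE 0.11). For both genes the sign of the log2 fold change turned when single libraries were left out, with ranges over all settings of -0.06 to 0.13 for Hif1an and -0.04 to 0.10 for Vhl.

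Bnip3 and Bnip3l encode receptors on the outer mitochondrial membrane that bring mitochondria to autophagosomes, and Bnip3 is a classical HIF target. Bnip3 (chr7:138890836-138909519, minus strand) was low and variable, at 4.18, 3.96 and 5.98 CPM in WT and 6.73, 5.18 and 5.45 CPM in KO. WT replicate 3 lay above KO replicates 2 and 3, so the groups overlapped, and the log2 fold change was 0.30 (SE 0.23), or 0.50 without WT replicate 3. Bnip3 has near-identical sequence in 5 other genes, 3 of them pseudogenes, and shares 504 bases with the antisense gene Gm45507, so its counts are uncertain.

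Bnip3l (NIX; chr14:66985239-67008877, minus strand) was far more abundant and was lower in KO. It was at 112, 122 and 149.6 CPM in WT and 108, 104 and 111 CPM in KO, with a log2 fold change of -0.25 (SE 0.11). WT replicate 3 was the highest of the WT samples, the groups were 1.51 CPM apart, and the log2 fold change was -0.13 without that library. Bnip3l has near-identical sequence in 1 pseudogene. The ratio of Bnip3l to Bnip3 per kb was 14.4, 16.7 and 13.5 in WT and 8.63, 10.9 and 10.9 in KO, so Bnip3l was the main transcript of the pair in every sample.

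In the order of level per kb in WT, Hif1a and Bnip3l (39.3 CPM per kb) came first with overlapping ranges. Egln2 (30.5), Arnt (20.4) and Egln1 (17.5) followed without overlap between neighbors. Hif1an (12.7) and Vhl (10.2) overlapped, and Egln3 (7.70), Bnip3 (2.68) and Epas1 came last without overlap. In KO the order was Hif1a, Epas1, Bnip3l (33.0), Egln2 (25.5), Egln1 (24.1), Arnt (16.8), Hif1an (13.1), Vhl (10.3), Egln3 (9.30) and Bnip3 (3.29), and the ranges of Egln2 and Egln1 and those of Vhl and Egln3 overlapped. Apart from the rise of Epas1 from last to second, Arnt and Egln1 were the only genes to exchange places.

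Across the set, 2 of 10 genes met the call rule (fold change above 1.5, edgeR quasi-likelihood p under 0.05 and Benjamini-Hochberg adjusted p under 0.1), Epas1 and Hif1a, both higher in KO. Of all genes tested 24.4% were called, 11.9% higher and 12.5% lower. In 7 of the 10 genes the genotypes did not overlap (4 higher, 3 lower), against 53.8% of all genes. Since the set was selected on known values of this contrast, nothing is read from these counts. The 8 genes that were not called had log2 fold changes of -0.28 (Arnt) to 0.47 (Egln1). The median over the 10 was 0.16, and that of all genes tested was -0.04. Samples of the KO group varied less than those of WT in 9 of the 10 genes, Vhl excepted, with a median coefficient of variation of 3.52% in KO and 13.99% in WT, and the same held for 75.8% of all genes.

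**Figure D3:**
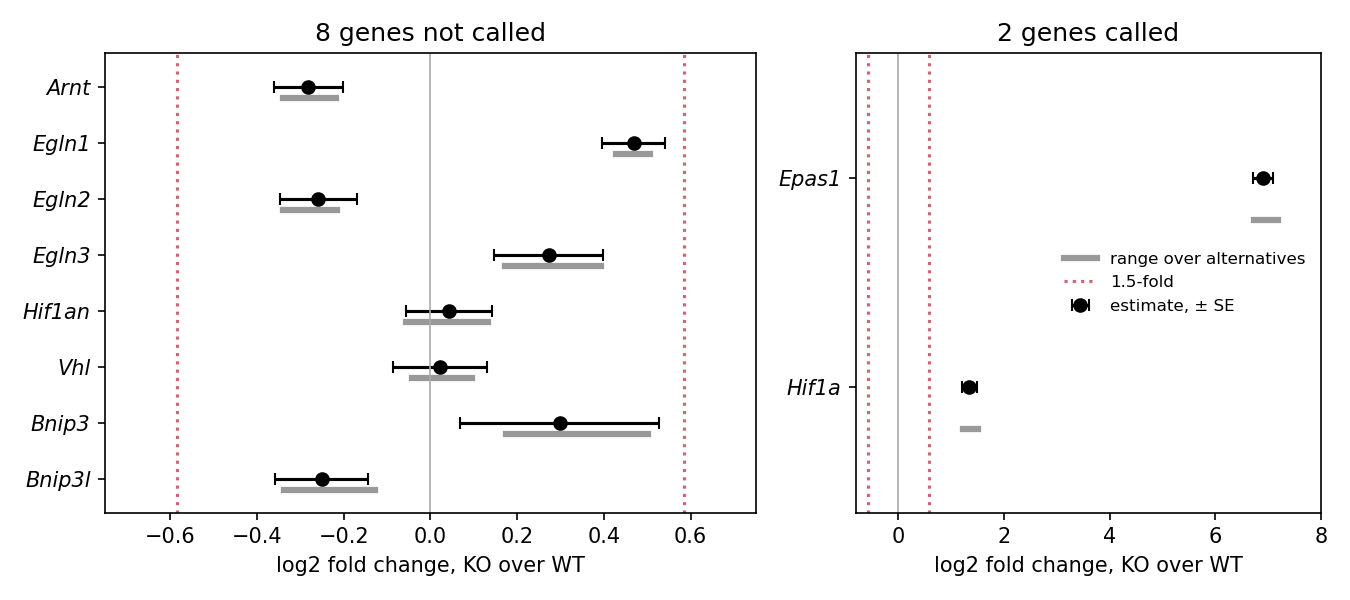
Log2 fold change of KO over WT for the 8 genes that were not called (left) and the 2 that were (right), with the estimate ± SE in black, the range over all processing alternatives in gray and 1.5-fold as dotted lines. Egln1 comes closest to the lines at 0.47, and the ranges of Hif1an and Vhl cross 0.

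The genes whose profiles over the 6 samples were most like those of the alpha subunits were found by the root mean square distance between log2(CPM + 0.5) profiles, each centered on its own mean. Closest to Epas1 were Klrc1 (distance 0.356), Il5 (0.376), Gzma (0.481), Ifitm2 (0.484) and Il13 (0.564), of which Il5 and Il13 encode type 2 cytokines, Gzma a cytotoxic protease and Klrc1 an NK cell receptor subunit. Each was under 6 CPM in WT on average, as Epas1 was, but their log2 fold changes ran from 5.97 (Ifitm2) to 13.1 (Il5, at 0 CPM in WT). Distances between such profiles largely reflect the difference between KO and WT, and shared regulation was not tested. Closest to Hif1a were Ern1 (0.0770), Satb1 (0.0895), Frmd4b (0.0915), S100a6 (0.0966) and Dap (0.101). Ern1 encodes a sensor of endoplasmic reticulum stress and Satb1 a chromatin organizer of T cells.

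To place the members in their pathway, lists of its other genes were read in the same fit. These lists were written from general knowledge of the HIF pathway, but with earlier results of these data known. Their counts and p-values are therefore given as a description. Among 12 tested partners of the HIF complex (alternative subunits, ligase subunits, degradation factors and coactivators), 2 were called higher and 1 lower, or 25% called against 24.4% of all genes, with a median log2 fold change of 0.05. Hif3a, an alternative alpha subunit that can restrain the others, fell from 7.96 ± 0.467 to 4.40 ± 0.442 CPM, with a log2 fold change of -0.86 (SE 0.17, edgeR adjusted p = 0.00517). Siah1b, of a family of ubiquitin ligases that degrade EGLN proteins, rose from 3.10 ± 0.983 to 5.72 ± 0.462 CPM (log2 fold change 0.89, edgeR adjusted p = 0.0347). The Siah1b call was lost without KO replicate 2 (edgeR adjusted p = 0.114), and the gene resembles another gene of the table closely enough for its counts to be uncertain. The coactivators Ep300 (220.0 ± 39.4 and 226.6 ± 8.90 CPM) and Crebbp (189 ± 20.7 and 179 ± 5.54 CPM) were not called.

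Arnt2, which can stand in for Arnt, met the call rule but was split within WT. It was at 1.71 and 2.37 CPM in WT replicates 1 and 2, 12.4 in WT replicate 3 and 15.3 to 17.3 CPM in KO, a log2 fold change of 1.56 (SE 0.66; edgeR adjusted p = 0.0975). WT replicate 3 thus held a level nearer to KO than to its own group. The call was lost under DESeq2 (adjusted p = 0.125) and when any one of the other 5 libraries was left out, with adjusted p-values by edgeR of 0.177 to 0.222 in those 5 fits. Without WT replicate 3 its log2 fold change was 2.99, and adjusted p-values over all settings ran from 3.73e-09 to 0.351. Exons of Arnt2 overlap 214 bases of an antisense gene, and another gene holds a near-identical copy, so its counts are uncertain.

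Outside the HIF hydroxylases, 4 other dioxygenases that need oxygen were listed, whereas Kdm3a, Plod2 and others were listed with the HIF targets below. Of the 4, edgeR called 0 higher and 1 lower (25% called against 24.4% of all genes). DESeq2 also called 0 higher, and 2 were higher at an unadjusted edgeR p under 0.05. P4htm, a membrane-bound prolyl hydroxylase, fell from 8.80 ± 0.243 to 5.22 ± 0.184 CPM (log2 fold change -0.75, edgeR adjusted p = 0.00472). The histone demethylase Kdm6a was at 77.1 ± 5.72 CPM in WT and 104 ± 3.16 in KO, under 1.5-fold.

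The glycolytic targets of HIF held the most calls of the 6 pathway lists. Of 20 genes tested, 13 rose and 0 fell by the call rule, or 65.0% against 11.9% of all genes called higher, and the median log2 fold change was 0.81 against -0.04 for all genes. DESeq2 also called 13 higher and 0 lower, and at an unadjusted edgeR p under 0.05, 2 were lower. In 18 of the 20 the genotypes did not overlap, against 53.8% of all genes. The 13 calls were also 13 without WT replicate 3. The 8 proliferation markers rose alongside, and their part in these values was not tested.

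Hk2, the inducible hexokinase, rose from 12.7, 14.1 and 18.3 CPM in WT to 48.3, 45.3 and 41.5 CPM in KO, a log2 fold change of 1.58 (SE 0.15; edgeR adjusted p = 2.16e-04). Tpi1, triosephosphate isomerase, rose from 119 ± 29.5 to 337 ± 14.9 CPM (log2 fold change 1.49, edgeR adjusted p = 5.42e-04). WT replicate 3 was its lowest sample at 86.0 CPM, and without that library the log2 fold change was 1.30. Pgk1, which makes the first ATP of the pathway, rose from 213 ± 25.6 to 580 ± 22.3 CPM (log2 fold change 1.44, edgeR adjusted p = 5.29e-05). Aldoa, the aldolase of most tissues, rose from 283 ± 28.0 to 742 ± 14.6 CPM (log2 fold change 1.39, edgeR adjusted p = 3.71e-05). All of these KO samples lay above all WT samples. Near-identical copies exist for Pgk1 (4 pseudogenes), Tpi1 (1 pseudogene) and Aldoa (1 gene of the table), and 75 of the 78 for Gapdh are pseudogenes. Such copies also exist for Ldha, Eno1, Pkm, Pgam1 and Pfkp, which were called higher too. The counts of all these genes are uncertain, whereas Hk2, Slc2a1, Pfkl and Slc16a3, all called higher, had no copy. Slc2a1 shares 105 bases with an antisense gene.

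The other 7 genes of the list did not meet the call rule. Slc2a3, a glucose transporter, was at 92.6 ± 19.9 CPM in WT and 107 ± 4.94 in KO with overlapping samples. Hk1 (192 ± 5.35 and 256.6 ± 1.11 CPM) and Gpi1 (429 ± 21.0 and 591 ± 9.87 CPM) were higher in every KO sample but under 1.5-fold, with edgeR adjusted p = 0.00139 and 0.00130. Pdk1 and Pfkfb3, which encode the kinase that closes pyruvate dehydrogenase and an activator of phosphofructokinase, had log2 fold changes of -0.44 (SE 0.08) and -0.32 (SE 0.08) and were chosen for mention after their values were seen. Without a fold cutoff, at an edgeR adjusted p under 0.05, 15 genes of the list were higher and 2 lower.

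**Figure D4:**
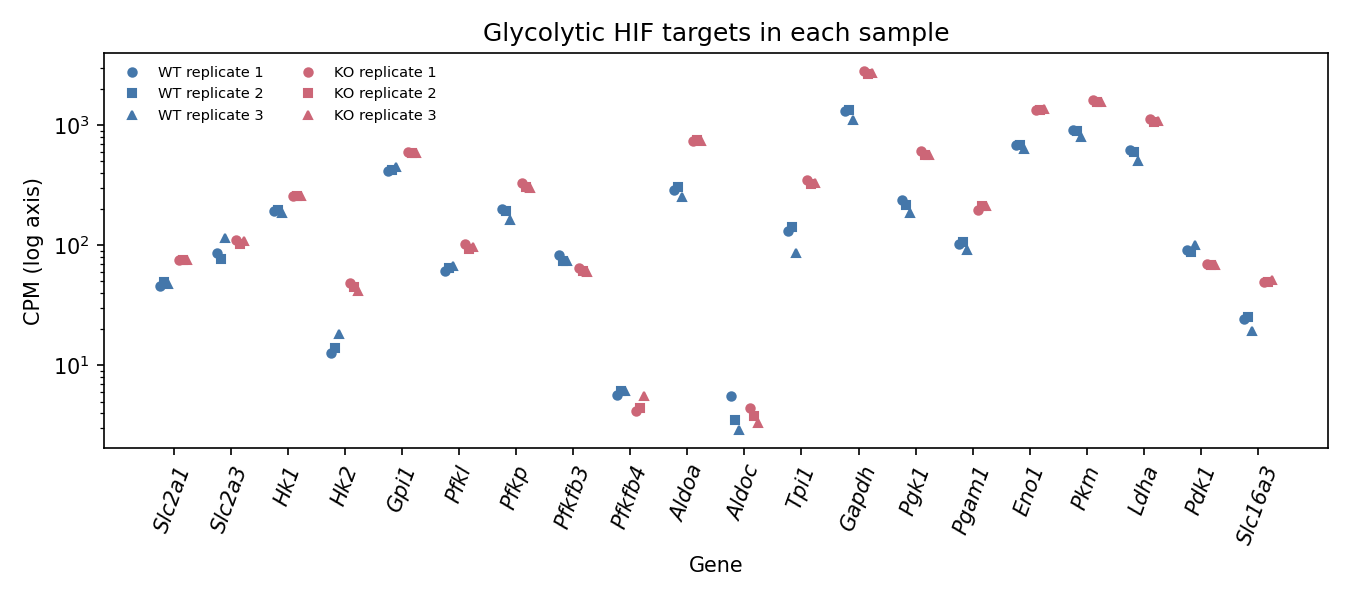
Level of the 20 glycolytic HIF targets in each sample, in CPM on a log axis, with WT in blue, KO in red and marker shapes for replicates 1 to 3. KO samples lie above WT for most genes, such as Hk2 and Pgk1, and below WT for Pdk1 and Pfkfb3.

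Targets of HIF also serve pH control, iron handling, transcription and protein folding. Of 28 such genes outside glycolysis, 4 rose and 1 fell (14.3% called higher against 11.9% of all genes), and the median log2 fold change was 0.05. DESeq2 called 7 of them (6 higher, 1 lower). Bhlhe40, a transcriptional repressor also raised by T cell activation, was at 98.6, 103 and 192 CPM in WT and 528, 543 and 556 CPM in KO, a log2 fold change of 2.05 (SE 0.25, edgeR adjusted p = 6.53e-04). WT replicate 3 held the highest WT level, still far under every KO sample, and without it the log2 fold change was 2.43. Ero1a, an oxidase of the endoplasmic reticulum, rose from 63.8 ± 9.61 to 111.8 ± 2.09 CPM (log2 fold change 0.81, edgeR adjusted p = 0.00105). Hmox1 (heme oxygenase) and Plod2 (a collagen lysyl hydroxylase) each rose by 1.02 on the log2 scale from low levels, to 12.2 and 12.5 CPM (edgeR adjusted p = 0.0282 and 0.0249), and the Hmox1 call was lost without KO replicate 1 (edgeR adjusted p = 0.102). For Hmox1 and Plod2 the log2 fold changes without WT replicate 3 were 0.79 and 0.75. Car12, a carbonic anhydrase, fell from 26.9 ± 3.22 to 13.5 ± 1.75 CPM (log2 fold change -0.99, edgeR adjusted p = 0.00119). Among abundant targets that were not called, Ddit4 was at 132 ± 20.7 CPM in WT and 105.6 ± 2.40 in KO, Kdm3a at 124 ± 18.1 and 119 ± 9.36, and Tfrc at 125 ± 27.0 and 139.8 ± 3.14. Without WT replicate 3 the count of calls was 9 (7 higher, 2 lower) instead of 5. Cox4i2 and Nos2 were not analysed here.

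Few genes usually assigned to HIF-2 could be measured beside Epas1. Of 7 listed, 2 were tested, Slc11a2 and Ccnd1, and edgeR and DESeq2 each called 0 of them, with 0 at an unadjusted edgeR p under 0.05. Slc11a2, an iron transporter, was at 38.9 ± 6.30 CPM in WT and 35.1 ± 0.505 in KO, and Ccnd1 (cyclin D1) was under 1 CPM on average in both genotypes. Epo, Tgfa, Pou5f1 and Angpt2 were not analysed here.

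Around Bnip3 and Bnip3l, 18 other mitophagy genes were tested. Of these 2 rose and 1 fell, or 16.7% against 24.4% of all genes, and the median log2 fold change was 0.05. Optn, an autophagy receptor that binds ubiquitin on mitochondria, rose from 0.788, 1.95 and 1.59 CPM in WT to 5.64, 6.02 and 6.55 CPM in KO, a log2 fold change of 2.08 (SE 0.34, edgeR adjusted p = 0.00242). Atg7, an enzyme of autophagosome formation, rose from 21.4 ± 1.98 to 38.3 ± 2.42 CPM (log2 fold change 0.84, edgeR adjusted p = 6.70e-04). Fbxl4, which limits the amount of BNIP3 and BNIP3L protein, fell from 19.3 ± 2.24 to 11.8 ± 1.01 CPM (log2 fold change -0.71, edgeR adjusted p = 0.00388). The abundant receptors and LC3 family genes Sqstm1 (177 ± 33.0 and 193 ± 7.32 CPM), Phb2 (177 ± 14.5 and 174 ± 5.88 CPM) and Map1lc3b (163 ± 45.0 and 143 ± 5.85 CPM) had overlapping samples.

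**Figure D5:**
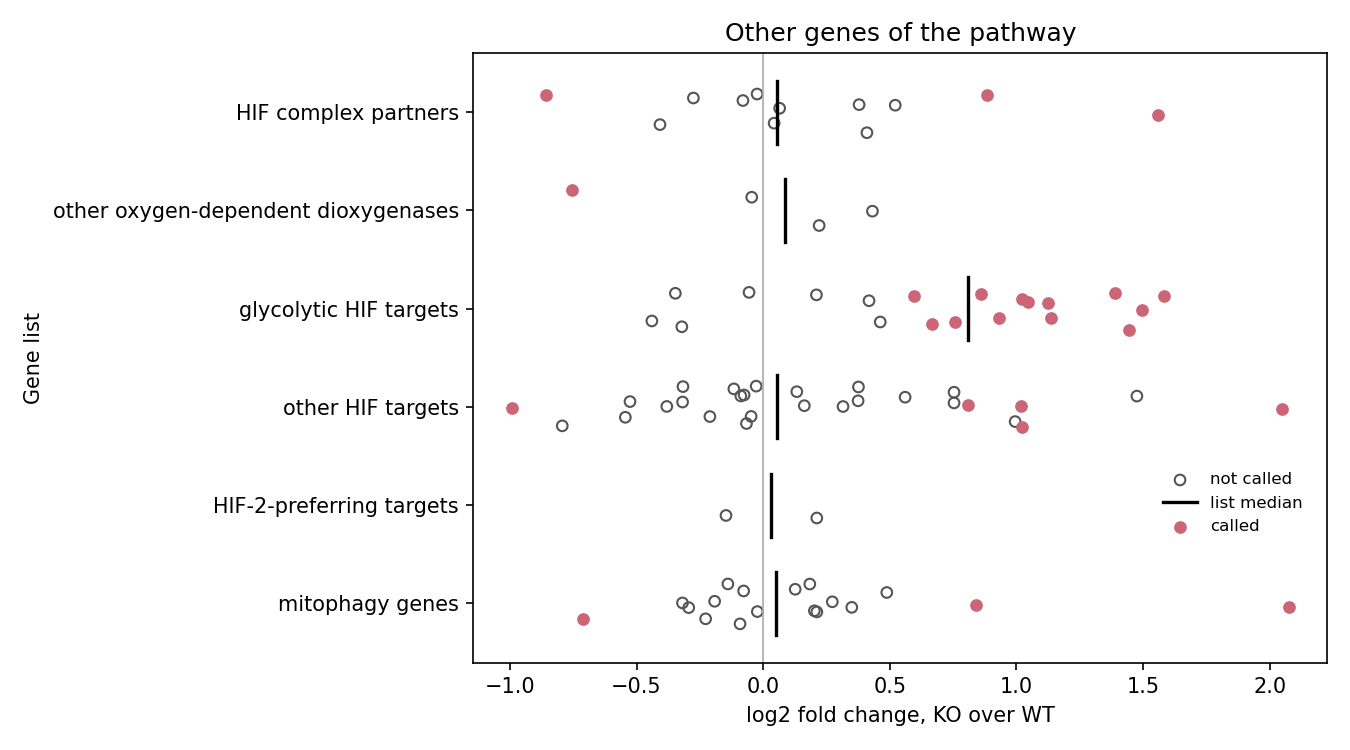
Log2 fold change of KO over WT for every tested gene of 6 lists around the HIF pathway, with called genes filled, others open and the list median as a black bar. The glycolytic targets have 13 called genes to the right of 0 and a median of 0.81, whereas the medians of the other lists lie between 0.03 and 0.09.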

How the data were processed

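The authors deposited whole-number counts per gene for 6 samples without normalization. The study's methods name SOAPnuke for filtering of reads, alignment to mm10 with HISAT2 keeping 1 alignment per read, StringTie for quantification and DESeq2 for testing. How the counts were made, the annotation and the use of strand are not given in the sources used here. No gene had a sum under 60 counts over the 6 samples, so genes with low counts are absent from the table.

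Samples were grouped by the genotype in the labels. KO was compared with WT in R 4.3.3 with edgeR 4.0.16 (filterByExpr at a minimum count of 10, TMM, glmQLFit and glmQLFTest, two-sided, no covariate), with Benjamini-Hochberg adjustment of p-values over the 13594 genes tested of 13709 (115 removed). A gene was called at a fold change above 1.5, p under 0.05 and adjusted p under 0.1, the study's cutoffs. The alternatives were DESeq2 1.42.0, other scalings, filters and thresholds, a replicate block, leaving out each sample, and exon union lengths. The fit was tested on simulated data.

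Genes named are the 10 members, Zfp335, up to 4 rises and 4 falls per list among called genes with at least 5 CPM and no overlap, list genes of at least 100 CPM that were not called, the 5 nearest profiles to each alpha subunit, and cell type markers. Pdk1, Pfkfb3, Kdm6a, Slc11a2 and Ccnd1 were added after their values were seen. Gapdh, Ldha, Eno1, Pkm, Pgam1 and Pfkp were named for their near-identical copies, and Slc2a1, Pfkl and Slc16a3 for having none. Of the genes listed for HIF-2, 1 is not reported here. The members and lists were chosen with earlier results of these data known. Transcript lengths and overlaps came from GENCODE M21 and promoters from RefSeq, both on GRCm38. Depths of 32032631 to 40728419 counts limit precision mainly for Epas1 in WT and for Bnip3.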

Additional observations from a re-analysis of the deposited data

How the results depend on the processing

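Of the 10 members, Epas1 and Hif1a had log2 fold changes of 6.73 to 7.20 and 1.22 to 1.5 over the alternatives, given as a description with no test. Called genes numbered 3318, and 2867 to 3667 when 1 sample was left out. Without a fold cutoff (adjusted p under 0.05) there were 5244, with 2 of the listed dioxygenases, 8 targets outside glycolysis and 7 mitophagy genes. With glmTreat, which tests against 1.5-fold itself, there were 1686, with 0 complex partners, 0 of the listed dioxygenases and 3 targets outside glycolysis. Both move by construction. Leaving out 1 sample gave 1 to 4 complex partners (1 without KO replicate 2), 4 to 9 targets outside glycolysis (9 without WT replicate 3) and 12 to 13 glycolytic targets. It gave 0 to 1 HIF-2 targets, and without the low-count filter 1 was called.

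The replicate numbers did not pair the samples: deviations from the group means correlated at 0.0576, 0.0328 and -0.00419 between same-numbered samples. A replicate block gave 3190 calls in all, 13 glycolytic targets and 8 targets outside glycolysis (7 higher, 1 lower) in place of 5. The cause was not tested. Besides Arnt2, glmTreat ended the calls of Siah1b, Hif3a, P4htm, Hmox1, Plod2 and Fbxl4, and leaving out 1 sample ended those of Siah1b (without KO replicate 2) and Hmox1 (without KO replicate 1). No result reversed its direction among those that were called. Of the members, Epas1 in WT (43 to 85 counts per library) and Bnip3 (130 to 246) had the least depth.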
